A study of Mus musculus with 4 samples.

Results

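Nuclei with a high content of Abi3bp transcripts were selected from 4 single-nucleus RNA sequencing libraries of mouse brain. A nucleus was selected on measured values: at least 3 unique molecular identifiers (UMIs, each tagging 1 captured transcript) of Abi3bp, these making up at least 0.05% of its UMIs, and at most 1 UMI in all of the fibroblast and meningeal genes Dcn, Col1a2 and Slc6a13. Of 50838 deposited barcodes, 50595 held at least 500 UMIs and 300 genes, with mitochondrially encoded genes giving no more than 5% of UMIs, and 1214 of these were Abi3bp-high nuclei. The level of Abi3bp in these nuclei, and their low counts of Dcn, Col1a2 and Slc6a13, are therefore a description and not a result.

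All animals were wild-type C57BL/6 mice aged 10 weeks, and all tissue was brain without cerebellum, frozen on dry ice. Harvest was either post-mortem, following cervical dislocation, or by craniotomy of a living animal deeply anaesthetised with isoflurane. Nuclei were either left unfixed or fixed in methanol at a final concentration of 80%. Each of the 4 combinations is represented by 1 library, so intervals cover counting error only, groups were not tested against each other, and each ratio is one between libraries. Harvest cannot be told apart from differences between animals or between the pieces of tissue extracted, of at most 50 mg each. Where 4 values follow each other, the 2 unfixed libraries come first and the 2 methanol-fixed ones second, each time with post-mortem before anaesthetised.

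Abi3bp encodes a secreted protein of the extracellular matrix with fibronectin type III repeats, first found through its binding to the SH3 domain of Abi3, a component of actin-regulating WAVE complexes. In brain tissue the gene is usually met in meningeal fibroblasts. Transcripts of matrix genes in neurons are of interest because secreted proteins, heparan sulfate chains and adhesion receptors take part in setting up and maintaining synapses. In the mouse genome build mm10, Abi3bp lies on the plus strand at chr16:56477878-56690135.

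The deposited libraries held 64312917, 65591829, 82408017 and 75023578 UMIs. Between 61 and 209 barcode sequences occurred in both libraries of a pair, and none of these was an Abi3bp-high nucleus in both. The Y-linked gene Eif2s3y stood at 83.5 and 124 CPM (UMIs of the gene per 1000000 UMIs summed) in all nuclei of the post-mortem libraries and at 0.671 and 0.986 CPM in the anaesthetised ones. The Y-linked gene Uty was present in all 4, at 126, 78.8, 149.5 and 91.4 CPM, so the animals of both harvests carried Y-linked transcripts but differed in Eif2s3y.

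Abi3bp-high nuclei were several times more frequent in the anaesthetised libraries. They numbered 124 of 14300 nuclei (0.867%, 95% Clopper-Pearson interval 0.722 to 1.03%) post-mortem without fixation and 639 of 17854 (3.58%, 3.31 to 3.86%) under anaesthesia without fixation. After methanol fixation they numbered 111 of 10792 (1.03%, 0.847 to 1.24%) post-mortem and 340 of 7649 (4.45%, 3.99 to 4.93%) under anaesthesia. The intervals of the 2 post-mortem libraries overlapped with each other and not with those of the anaesthetised libraries. Abi3bp-high nuclei were deeper than the others, with a median of 5709.5 UMIs against 3994.5 in the post-mortem unfixed library, 5020.0 against 3123, 8393 against 6509, and 12272 against 8171. Thinning all nuclei to 2000 UMIs gave shares of 0.380, 2.79, 0.577 and 3.01%, in the same order of harvests. That step left out 4044, 5995, 2307 and 1474 shallower nuclei. A doublet caller marked 22.6, 23.2, 9.01 and 15.3% of Abi3bp-high nuclei against 12.6, 14.9, 8.95 and 10.5% of the others, and the part of doublets in the shares was not tested beyond leaving them out.

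**Figure D1:**
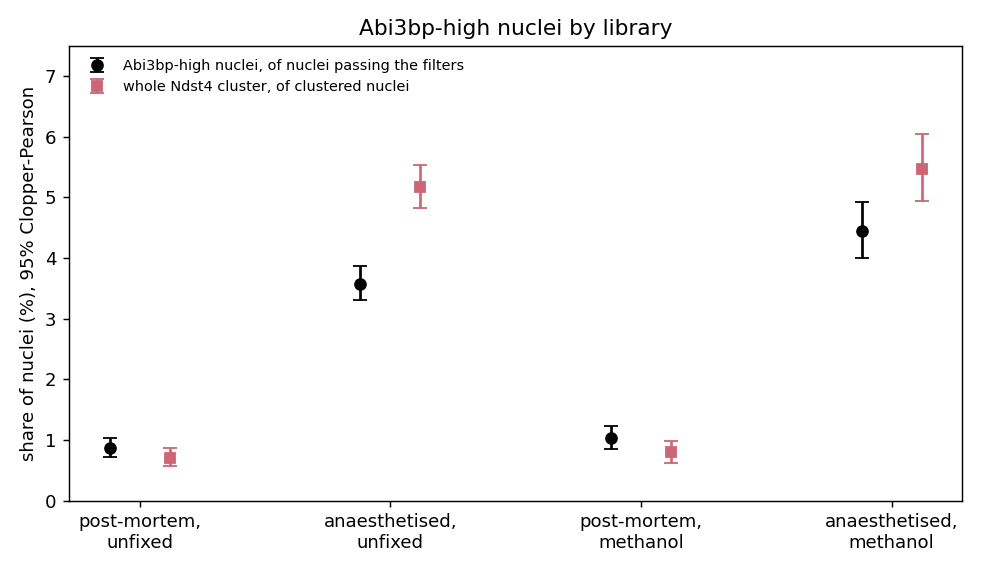
Share of nuclei (%, y axis) in each library (x axis) that were Abi3bp-high (black circles) and that fell in the cluster led by Ndst4 (red squares), with 95% Clopper-Pearson intervals for counting error. Both shares lie near 1% or below in the post-mortem libraries and between 3.58 and 5.47% in the anaesthetised ones.

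Within the selected nuclei the Abi3bp content was broad. The lowest value was 3 UMIs by selection, the medians were 5, 6, 9 and 19 UMIs, and the highest nuclei held 30, 34, 40 and 78 UMIs. As a share of the nucleus the medians were 0.0947, 0.134, 0.0969 and 0.127%. Just inside the limit, 140 nuclei held exactly 3 UMIs, and just outside it 827 nuclei held 2. A further 469 nuclei held 3 or more UMIs but under 0.05% of their total. The fibroblast condition removed 1 nucleus in all, so no comparison with the nuclei it left out was possible. Of the 1214 nuclei, 1204 had no UMI of Dcn, Col1a2 or Slc6a13 and 10 had 1. The 7 fibroblast markers summed to 12.8, 5.46, 0.860 and 6.03 CPM in Abi3bp-high nuclei and to between 15.7 and 17.6 CPM in the other nuclei. Dcn, Col1a2 and Slc6a13 are among the 7, so the selection itself limits this sum and the lower value is a description. These nuclei held 38.8, 73.4, 43.1 and 80.4% of all Abi3bp UMIs of their libraries.

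Free RNA can place UMIs in nuclei that do not express a gene. In the clusters of oligodendrocyte nuclei, which should lack Abi3bp, 1.16, 2.53, 0.185 and 0.426% of nuclei had at least 1 Abi3bp UMI, at median depths of 1224.5, 909, 1313 and 1407 UMIs. None of the 1638, 2013, 1619 and 939 oligodendrocyte nuclei met the selection, which allows shares of up to 0.183, 0.149, 0.185 and 0.319%. In the cluster that held most Abi3bp-high nuclei, 76.1, 72.1, 85.9 and 80.5% of nuclei had at least 1 Abi3bp UMI, at median depths of 6368.5, 5094, 11729 and 13428 UMIs.

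To see which genes accompany Abi3bp, UMIs were summed over the Abi3bp-high nuclei and over all other nuclei of a library and scaled to CPM, and 7375 genes with enough counts were compared. Only 7 genes (0.0949% of those compared) were at least 4-fold higher in Abi3bp-high nuclei in all 4 libraries. They were Abi3bp itself, which the selection used, a predicted gene, and Ndst4, Emid1, Tfap2d, Klhl14 and Bmpr1b. Because genes of the same nuclei were ranked, these values describe the selected nuclei and are not tests.

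Ndst4 encodes a Golgi enzyme that removes acetyl groups from nascent heparan sulfate and adds sulfate in their place. It is annotated at chr3:125404076-125728899 on the plus strand, with no gene on the other strand. Its level was 1124, 1482, 1329 and 1519 CPM in Abi3bp-high nuclei against 49.2, 95.4, 61.3 and 93.2 CPM in the others. The ratios were 22.8 (95% exact conditional interval 21.2 to 24.6), 15.5 (15.0 to 16.1), 21.7 (20.5 to 23.0) and 16.3 (15.8 to 16.9). Every Abi3bp-high level was thus above every level in other nuclei, by more than 10 times.

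Bmpr1b encodes a type I receptor for bone morphogenetic proteins, and Tfap2d a transcription factor of the AP-2 family. Bmpr1b stood at 167, 348, 298 and 409 CPM against 40.1, 40.9, 49.3 and 44.0 CPM, a ratio between 4.19 and 9.29. Tfap2d stood at 25.6, 50.9, 24.9 and 66.3 CPM against 3.87, 2.46, 4.31 and 2.15 CPM. The Tfap2d ratios were 6.76 and 5.87 in the post-mortem libraries and 20.7 and 30.8 in the anaesthetised ones, so this gene marked the selected nuclei more sharply in the latter. The make-up of the selected nuclei by cluster, given below, also differed between harvests, and its part in such ratios was not tested. In Abi3bp-high nuclei of the cluster led by Ndst4, Tfap2d stood at 23.9, 67.1, 38.0 and 79.8 CPM.

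Klhl14, a BTB and kelch domain protein, showed the same division between harvests. It stood at 16.6, 52.6, 14.6 and 49.2 CPM against 2.46, 2.91, 3.19 and 2.48 CPM, with ratios of 6.98, 18.1, 4.71 and 19.9. Emid1, which encodes a secreted protein with an EMI domain, was more even, at 57.5, 86.9, 51.6 and 72.9 CPM against 8.89, 12.9, 5.95 and 8.28 CPM. Klhl14 and Tfap2d each overlap an annotated gene on the other strand, and the strand setting of the counting is not given in the sources used here, so part of their counts could belong to the partner.

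**Figure D2:**
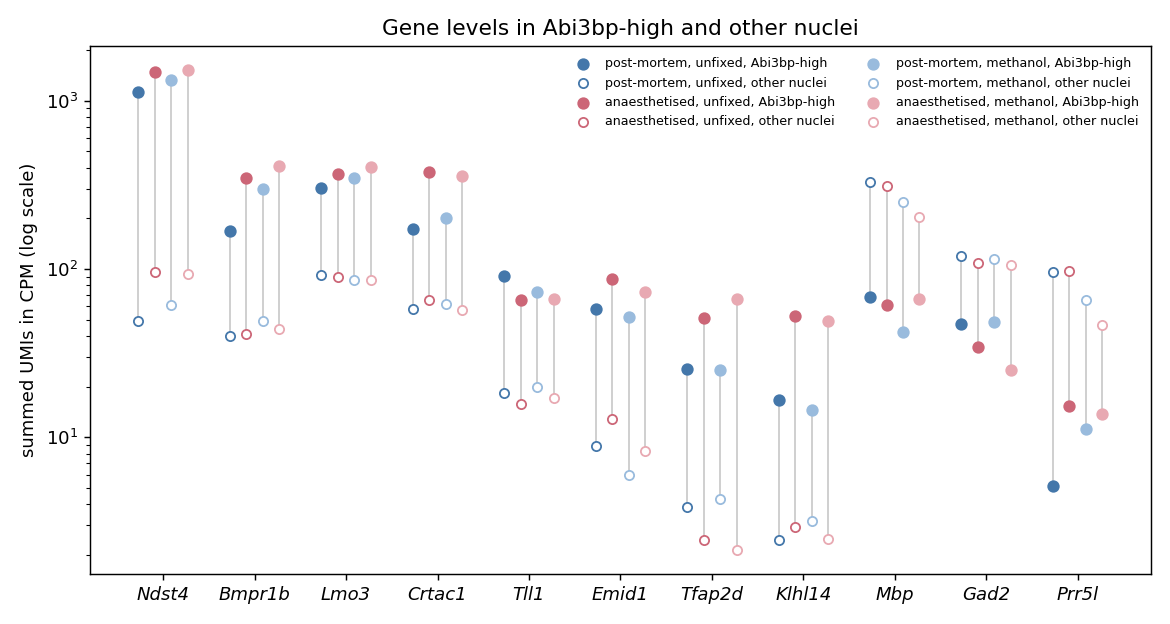
Level of 11 genes (x axis) in CPM on a log scale (y axis), summed over Abi3bp-high nuclei (filled points) and over other nuclei (open points) of each library. The first 8 genes are higher in Abi3bp-high nuclei in all 4 libraries and the last 3, Mbp, Gad2 and Prr5l, are lower.

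At 2-fold, a limit added after the values were seen, 46 genes (0.624%) were higher in all 4 libraries, 6 of them predicted. Genes named from here on in this comparison were chosen with their values in view. Several encode secreted or cell-surface proteins. Tll1, a tolloid-like metalloprotease, stood at 90.8, 65.0, 73.1 and 66.7 CPM against 18.3, 15.8, 19.9 and 17.1 CPM. Crtac1, a secreted acidic glycoprotein, stood at 173, 375, 200.3 and 354 CPM against 58.2, 65.4, 61.8 and 57.0 CPM. Crtac1 overlaps an antisense gene that was also among the 46.

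Tafa1, a secreted chemokine-like protein, stood at 1097, 2511, 1201 and 2872 CPM against 391, 732, 415 and 794 CPM. The teneurin Tenm3, an adhesion protein that pairs neurons across synapses, stood at 959, 1895, 1138 and 1916 CPM against 381, 497, 414 and 513 CPM. For both genes the anaesthetised libraries gave the higher levels in Abi3bp-high nuclei. The growth factor Pdgfc, the proprotein convertase Pcsk5, the contactins Cntn5 and Cntn6 and the ephrin receptor Epha5 were also at least 2-fold higher in every library.

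Among receptors, Rxfp1, which binds relaxins, stood at 37.1, 85.4, 36.1 and 104 CPM against 9.10, 27.6, 9.30 and 30.9 CPM. Mas1, a receptor of the angiotensin system, and the adhesion G-protein-coupled receptor Adgrg6 were higher as well. Adgrg6 had ratios of 6.98 and 8.91 in the post-mortem libraries and 2.36 and 2.16 in the anaesthetised ones. Regulators of transcription and RNA included Lmo3, a LIM-domain cofactor, with 302, 367, 345 and 402 CPM against 91.9, 89.3, 85.3 and 85.8 CPM. Glis3, Zfp536, Bcl6, Nfia, Nacc2 and the RNA-binding protein Igf2bp2 belonged to the same set. All of these except Igf2bp2 overlap an annotated gene on the other strand, and the partner of Nfia, a predicted gene, was also among the 46. Arhgap29, Abca4, Cabp1, Gfpt2, Prkca, Ppm1l, Pid1, Shisal1, Gask1b, Pdzrn3, Fam163b, Lnx2 and Rad51ap2 were also among the 46.

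Heparan sulfate is built by an initiating xylosyltransferase, by the Ext polymerases and by a series of modifying enzymes that includes the Ndst and Hs3st families. A list of 28 such genes, drawn up after Ndst4 was seen to lead, had 18 with enough counts. Of these, 3 (Ndst4, Ext1 and Hs3st1) were at least 2-fold higher in all 4 libraries and none was 2-fold lower, where 0.624% and 1.64% of all genes compared were. Ndst4 prompted the list and is among the 3, so this count is not a test. At any size, 10 of the 18 were higher in all 4 libraries and 5 were lower, against 15.0% and 35.5% of all genes compared. The median log2 ratio of the list was 0.34, against -0.10 over all genes compared. Ext1, a polymerase subunit, stood at 802, 1343, 830.3 and 1362 CPM against 377, 538, 389.7 and 537 CPM. Xylt1, the initiating enzyme, had log2 ratios of 1.24, 1.38, 0.93 and 1.45 and so missed the limit in 1 library. Of 13 core proteins that carry the chains, 5 had enough counts, none was 2-fold higher and 1, Gpc3, was 2-fold lower. At any size, 4 of these 5 were lower in all 4 libraries.

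A list of 32 genes of bone morphogenetic protein signalling was likewise drawn up afterwards, with Bmpr1b already seen, so its count is not a test. Of its 13 measured genes 2 (Bmpr1b and the protease Tll1) were at least 2-fold higher, against the same 0.624% of all genes. At any size, 5 of the 13 were higher in all 4 libraries and 4 were lower, and the list's median log2 ratio was 0.07. Abi3bp was named for its partner, and of 11 measured genes of the ABI and WAVE complex list none was 2-fold higher or lower. That list's median log2 ratio was -0.04, close to that of all genes. None of the 15 measured matrix glycoprotein and proteoglycan genes was 2-fold higher, with a median of -0.34. Of 7 measured collagen genes none was 2-fold higher and 1, Col25a1, was 2-fold lower, against 1.64% of all genes compared. At any size, 2 of the 7 were higher in all 4 libraries and 3 were lower. The collagen list's median log2 ratio was 0.12, against -0.10 over all genes compared.

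At 4-fold, 1 gene (0.0136%) was lower in all 4 libraries. This was Tcf7l2, a transcription factor abundant in thalamus and glia, with 1.28, 5.46, 2.58 and 3.95 CPM against 25.4, 32.7, 22.5 and 24.6 CPM. At 2-fold, 121 genes (1.64%) were lower. All 5 measured oligodendrocyte markers were among them, with myelin basic protein Mbp at 67.8, 61.0, 42.1 and 66.3 CPM against 330.3, 311, 249 and 203 CPM. The 1 measured astrocyte marker, the glutamate transporter Slc1a3, was lower too. None of 3 measured microglial markers passed 2-fold, but all 3 were lower in all 4 libraries, as were 35.5% of all genes compared. Their median log2 ratio was -0.84. Also at least 2-fold lower were St18, Aspa, Prr5l and Bcas1, which oligodendrocytes also express. The alarmin Il33, the GDNF receptor Gfra1, Ankrd55, Clic4 and the prolactin receptor Prlr were in the same 2-fold set.

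Markers of inhibitory neurons were low, and those of excitatory neurons were present at modest levels. Among the 5 measured inhibitory markers 4 were at least 2-fold lower, Gad1 and Gad2 among them. Gad2, an enzyme that makes GABA, stood at 47.3, 34.2, 48.1 and 25.1 CPM against 119, 108, 115 and 106 CPM. Slc17a7, the vesicular glutamate transporter of cortical neurons, stood at 152, 118, 108 and 137 CPM against 70.5, 82.9, 60.7 and 85.6 CPM. None of 5 measured excitatory markers reached 2-fold in all libraries, and in all 4 libraries 2 of them were higher and 2 were lower. Of the 11 measured immediate early genes, which report recent activity, 5 were higher in all 4 libraries without any reaching 2-fold. Over all genes compared, 15.0% were higher in all 4 libraries and 35.5% were lower.

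Abi3bp-high nuclei marked as doublets (28, 148, 10 and 52) carried more Mbp, at 139.9, 148, 181 and 225 CPM against 45.3, 30.6, 12.5 and 21.8 CPM in unmarked ones. Gad2 stood at 53.8, 77.0, 117 and 74.2 CPM in marked and 45.3, 19.4, 33.4 and 11.4 CPM in unmarked nuclei. Ndst4 was lower in marked nuclei of the anaesthetised libraries and slightly higher in those of the post-mortem ones, at 1216, 1048, 1351 and 1004 CPM against 1095, 1633, 1324 and 1663 CPM. Without marked nuclei, among the members and the rest alike, 10 genes were 4-fold higher, including 6 of the 7 above but not Bmpr1b, and 34 were 4-fold lower.

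Nuclei had been grouped by Leiden clustering of expression in a way that left Abi3bp, Dcn, Col1a2 and Slc6a13 out of the genes used, so cluster membership was not built on the selecting genes. Of the 1214 Abi3bp-high nuclei 976 were clustered and 238 had been set aside as doublets. They spread over 27 of 41 clusters, but 8 clusters with 10 or more of them held all except 32. The largest set, 722 nuclei, fell in a cluster of 1322 led by Ndst4, Bmpr1b, Tfap2d, Emid1, Crtac1, Klhl14, Tenm3, Tafa1, Lmo3 and Pdzrn3.

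This Ndst4 cluster was given no cell type name. It reached 2-fold for 4 of 5 markers in the piriform and entorhinal list (Lmo3, Slc30a3, Cdh9 and Trps1), but a striatal cluster met the same list with 3 of 5. Among the other cell type lists only that of claustrum and Car3 had markers past 2-fold and seen in 10% of the nuclei, 2 of 6 (Nr4a2 and Ntng2). No marker of the excitatory neuron list passed. The Abi3bp-high nuclei of this cluster had 145 CPM of Slc17a7 and 6.21 CPM of Gad2, which does not name it.

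The Ndst4 cluster accounted for 39.6% (29.7 to 50.1%), 82.9% (79.3 to 86.1%), 50.5% (40.4 to 60.6%) and 78.5% (73.3 to 83.1%) of the clustered Abi3bp-high nuclei. As a share of all clustered nuclei it made up 0.705, 5.17, 0.794 and 5.47% of the libraries. The higher frequency of Abi3bp-high nuclei in the anaesthetised libraries thus went with a higher frequency of the whole cluster, which the selection did not use. Within it, 43.2% (32.7 to 54.2%), 52.0% (48.5 to 55.6%), 65.4% (53.8 to 75.8%) and 60.4% (55.3 to 65.4%) of nuclei were Abi3bp-high. Between libraries of the same fixation these last intervals overlapped. Fewer such nuclei in a brain and fewer recovered from the piece extracted cannot be told apart.

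**Figure D3:**
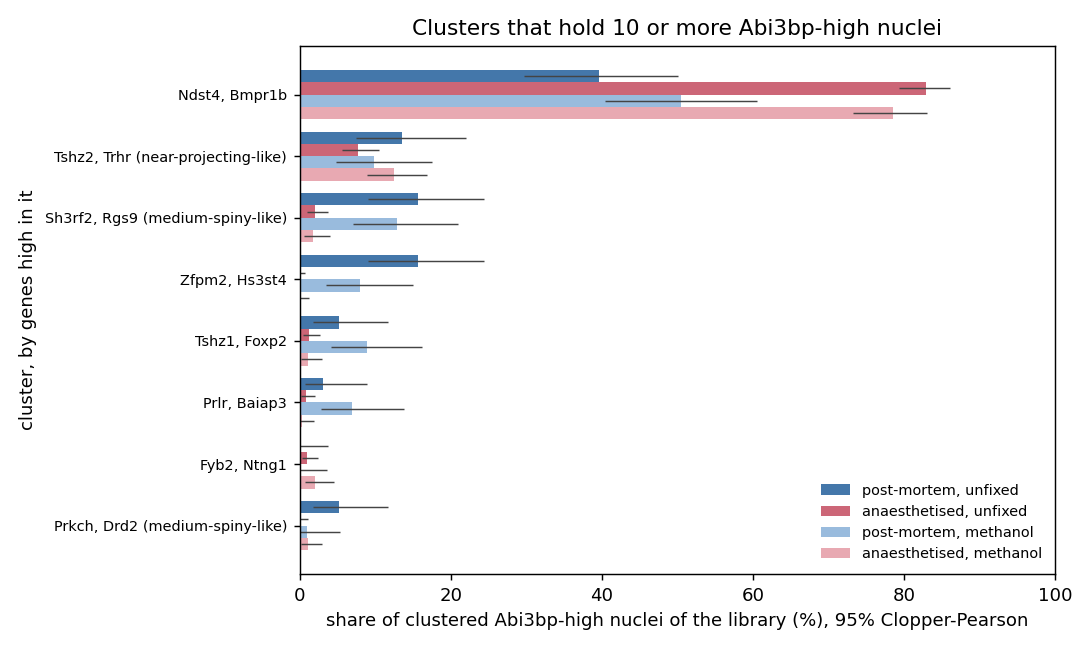
Share of the clustered Abi3bp-high nuclei of each library (%, x axis) found in the 8 clusters with 10 or more of them (y axis, each named by genes high in it), with 95% Clopper-Pearson intervals. The Ndst4 cluster holds 82.9 and 78.5% in the anaesthetised libraries and 39.6 and 50.5% in the post-mortem ones, where the main medium-spiny-like cluster and the Zfpm2 cluster hold more.

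The second set was a cluster of deep cortical neurons led by Tshz2, near-projecting-like by all 4 markers of its list (Tshz2, Trhr, Slc17a8 and Lypd1). It held 97 Abi3bp-high nuclei of its 390. By library these were 13 of 59, 38 of 190, 10 of 53 and 36 of 88 nuclei. Its Abi3bp-high nuclei carried 811, 1027, 738 and 903 CPM of Abi3bp, below the 1512, 1679, 1518 and 1738 CPM in those of the Ndst4 cluster. Ndst4 was almost missing from them, at 1.76 CPM, while Tshz2, a zinc finger homeobox factor, stood at 3856 CPM against 15.3 CPM in the Ndst4 cluster.

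Most companion genes of Abi3bp were lower in this second set. Of the 45 genes other than Abi3bp that were at least 2-fold higher in all selected nuclei together, most of which lie in the Ndst4 cluster, 26 were at least 2-fold lower in Abi3bp-high nuclei of the near-projecting-like cluster than in those of the Ndst4 cluster in all 4 libraries, and none was 2-fold higher. Over 7374 genes compared without Abi3bp, 3.91% were 2-fold lower and 3.58% were 2-fold higher. The way the 45 were picked favours genes high in the Ndst4 cluster, so their lower level elsewhere is a description and not a test. Another 9 of the 45 were lower in all 4 libraries without reaching 2-fold in each. Pcsk5, Pid1 and Prkca were slightly higher in all 4, and 7 went both ways, Cntn6, Crtac1 and Rxfp1 among them. With libraries pooled, Bmpr1b stood at 459 CPM in Abi3bp-high nuclei of the Ndst4 cluster and 8.79 CPM in those of the near-projecting-like cluster, Tafa1 at 3236 and 72.1 CPM, Ext1 at 1548 and 219.8 CPM, and Klhl14 at 58.6 CPM and no UMI. Hs3st4 went the other way, at 455 and 1384 CPM. Slc17a7 stood at 145 and 125 CPM.

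The other 6 groups had different profiles. A medium-spiny-like cluster (10 of 10 striatal projection neuron markers, with Drd2 and the enkephalin gene Penk at 268 and 1419 CPM) held 43 Abi3bp-high nuclei of 3510, and a second medium-spiny-like cluster held 10 of 3860. A cluster led by Zfpm2 and Hs3st4 held 23 of 1745. It reached 2-fold for 4 of 5 layer 6 corticothalamic markers but was given no name either, since both medium-spiny-like clusters met that list with 3 of 5. Its Abi3bp-high nuclei were 15 of 475 nuclei and 8 of 378 in the post-mortem libraries and 0 of 607 and 0 of 285 in the anaesthetised ones, which allows shares of up to 0.494 and 1.05%. A cluster led by Tshz1, Npffr2 and Foxp2 held 23 of 1139, with Foxp2 at 3097 CPM in them. A cluster led by Prlr and Baiap3 held 15 of 5646. The last, led by Fyb2 and Ntng1, held 11 of 124, and 122 of its nuclei came from the anaesthetised libraries.

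**Figure D4:**
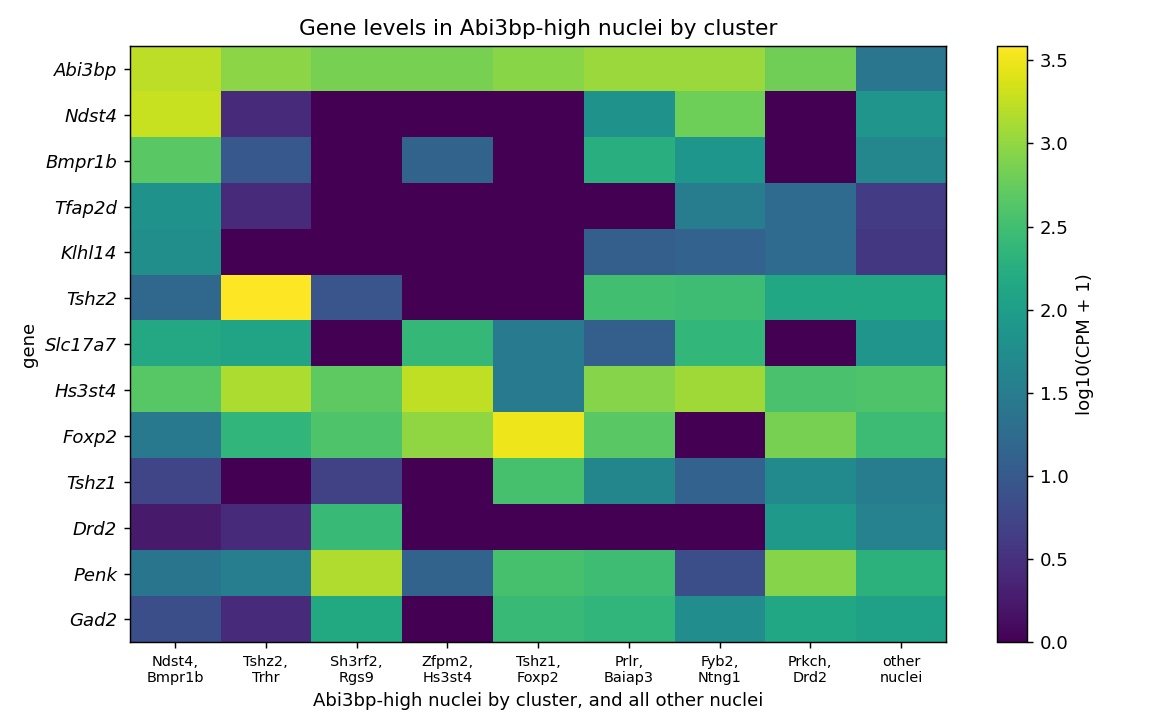
Level of 13 genes (rows) in Abi3bp-high nuclei of each of the 8 clusters and in all other nuclei (columns), libraries pooled, as log10 of CPM plus 1 (colour). Abi3bp is high in every cluster because nuclei were selected on it, Ndst4 in the first and at 624 CPM in the Fyb2 cluster, and Tshz2 is highest in the second.

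Counted nucleus by nucleus, with Ndst4 and Tshz2 picked after their values were seen, the 2 sets were nearly separate. Of 1214 Abi3bp-high nuclei, 808 had 3 or more UMIs of Ndst4 only, 131 of Tshz2 only, 23 of both and 252 of neither. Among the 23, none was in the post-mortem unfixed library and 14, 1 and 8 were in the others. Nuclei with neither made up 44.4 and 36.9% in the post-mortem libraries and 18.6 and 10.9% in the anaesthetised ones. For comparison, 3.76% of the nuclei outside the selection had 3 or more UMIs of Ndst4.

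The share in the Ndst4 cluster grew with Abi3bp content. It was 0.808% of clustered nuclei with no Abi3bp UMI, 5.22% with 1 and 12.1% with 2. Among selected nuclei it was 39.4% at 3 UMIs, 71.5% at 5 to 9, 93.5% at 10 to 19 and 95.9% at 20 or more. Counts pool the libraries here, and deeper nuclei reach higher UMIs. Within libraries, nuclei with 10 or more UMIs were in the Ndst4 cluster in 20 of 20, 137 of 142, 43 of 46 and 201 of 216 cases. At 3 to 4 UMIs this was 6 of 52, 81 of 131, 0 of 24 and 3 of 22. Nuclei near the selection limit were thus a mixture, and in 3 of the libraries mostly lay outside the Ndst4 cluster. No nucleus of the near-projecting-like cluster reached 20 UMIs.

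**Figure D5:**
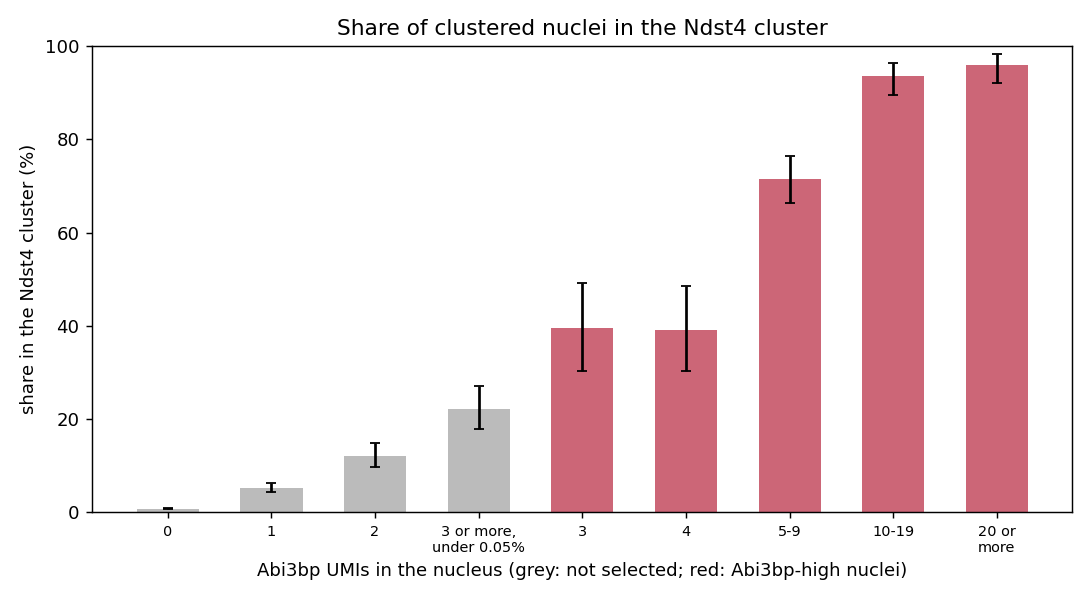
Share of clustered nuclei found in the Ndst4 cluster (%, y axis, libraries pooled) by Abi3bp UMIs in the nucleus (x axis), with 95% Clopper-Pearson intervals; grey bars are nuclei outside the selection and red bars Abi3bp-high nuclei. The share goes from 0.808% at 0 UMIs to 95.9% at 20 or more.

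Inside the Ndst4 cluster, Abi3bp-high nuclei were set against the other 600 nuclei (50, 375, 27 and 148). The post-mortem levels of these other nuclei rest on 50 and 27 nuclei, so low values among them come from few UMIs. Past 2-fold on the higher side in all 4 libraries were 15 of 6856 genes (0.219%), Abi3bp and 4 predicted genes included. Klhl14 had 30.7, 65.7, 21.5 and 63.4 CPM in Abi3bp-high nuclei, against 12.2 and 9.88 CPM in the anaesthetised libraries and no UMI in the few other nuclei of the post-mortem ones. Erbb4, a neuregulin receptor, stood at 68.3, 469, 90.8 and 576 CPM against 28.9, 115, 37.9 and 102 CPM. Gabrg1, a GABA-A receptor subunit, stood at 61.5, 65.3, 52.8 and 100.0 CPM against 3.21, 21.5, 14.6 and 27.9 CPM. The remaining named ones were the adrenergic receptor Adra1b, the collagen Col19a1, the semaphorin Sema6a, the calcium channel subunit Cacna2d2, the cadherin Cdh20, Tmc1 and Gfpt2.

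Another 13 genes (0.19%) were at least 2-fold lower in Abi3bp-high nuclei of the cluster, 5 of them predicted. Inpp4b, a phosphoinositide phosphatase, stood at 174, 254, 302 and 254 CPM against 575, 513, 692 and 654 CPM. Grin3a, an NMDA receptor subunit, stood at 27.3, 32.4, 23.1 and 38.8 CPM against 67.5, 129, 49.6 and 158 CPM. The homeobox factor Mkx, the transcription cofactor Eya1, the matrix protein Matn2, Greb1l, Fstl5 and Slc44a5 were the others. Of the 45 companion genes 2, Klhl14 and Gfpt2, were thus among the 15 higher ones and none was among the 13, while Ndst4, Bmpr1b and Tfap2d were in neither set.

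Methanol fixation was compared within Abi3bp-high nuclei as methanol over unfixed, once for each harvest, on 6706 genes. After methanol 37 genes (0.552%) were at least 2-fold higher in both pairs. The leading genes were Ssna1, Gpr22, Atp5j, Rpl41, Mt3, Tmsb10, Fuom and Slitrk4. The ribosomal protein gene Rpl41 stood at 21.7 and 28.5 CPM unfixed and 62.7 and 72.7 CPM in methanol. Mt3, a metallothionein of the brain, stood at 15.3 and 15.5 CPM unfixed and 70.5 and 39.7 CPM in methanol. Of 19 measured genes in the list of cytosolic ribosomal proteins 2 passed 2-fold, and 16 stood on the higher side in both pairs, as did 2157 of all 6706 genes (32.2%). The list's median log2 ratios were 0.62 and 0.96, against -0.04 and -0.03 over all genes. None of the 6 measured mitochondrially encoded genes was higher in both pairs.

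Another 88 genes (1.31%) were at least 2-fold lower after methanol, and 63 of these were predicted genes. The leading named ones were Cers1, Fndc9, Hacd4, Epo, Usp50, Brip1os and Glp2r. Cers1, a ceramide synthase, stood at 69.0 and 62.4 CPM unfixed and 15.5 and 14.1 CPM in methanol. The same comparison in the other nuclei of these libraries gave 101 lower genes, of which 65 were shared (73.9% of the 88, 64.4% of the 101). It gave 19 higher genes, of which 10 were shared. Abi3bp and Ndst4 differed little, with log2 ratios of 0.10 and 0.04, and 0.24 and 0.04. The selection set the same lower limit on Abi3bp in every library, so its ratios cannot show whether fixation changes it.

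Harvest was compared as anaesthetised over post-mortem, once unfixed and once in methanol. Past 2-fold in both pairs, 31 genes (0.462%) stood on the higher side and 19 (0.283%) on the lower. The higher genes were led by Efcab6, Rftn1, C1ql3, Kcnmb2, Vcan, Zbtb16, Klhl14 and Cpne8. C1ql3, a secreted synaptic protein, went from 15.3 to 66.7 CPM in the unfixed pair and from 28.4 to 97.0 CPM in the methanol pair. The lower genes were led by Eif2s3y, Drd2, Stk32a, Klhl1, Foxp2, Sh3rf2, Penk and Rell1. The dopamine receptor gene Drd2 went from 40.9 to 9.78 CPM and from 29.2 to 7.07 CPM. The make-up of the selected nuclei moved with harvest as well. The main medium-spiny-like cluster, where Drd2 and Penk are high, held 15 of 96 and 13 of 101 clustered Abi3bp-high nuclei post-mortem and 10 of 491 and 5 of 288 under anaesthesia.

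Restricted to Abi3bp-high nuclei of the Ndst4 cluster, 60 of 6435 genes (0.932%) passed 2-fold on the higher side under anaesthesia and 27 (0.42%) on the lower side. Of the 31 and 19 genes above, 20 and 3 were among them. Efcab6 (log2 ratios 2.03 and 2.35), Rftn1 (1.98 and 1.84), Zbtb16 (2.26 and 2.39), Rxfp1 (1.16 and 1.34) and Klhl14 (1.02 and 1.51) kept the 2-fold difference. Tafa1 had 0.72 and 0.93. Erbb4, outside the leading set and chosen after its values were seen, had 2.74 and 2.65. Drd2, at 0, 3, 0 and 2 UMIs, and Foxp2, at 13.7, 21.3, 4.95 and 36.3 CPM, fell short of the count limits in these nuclei. Neither was compared, so neither could be among the 27. Eif2s3y had no UMI in either anaesthetised library. The post-mortem values of this comparison rest on 38 and 51 nuclei.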

How the data were processed

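Per the labels' protocols, nuclei of 4 frozen mouse brain samples, 1 per group, were made into libraries with a SeekOne DD droplet kit. The deposited values are whole-number UMI counts per gene and barcode for 32285 genes, as the authors made them. Per the submitters' processing notes the build was mm10, and the aligner, cell caller and strand setting are not given in the sources used here. The members and lists were chosen with earlier results of these data known.

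Doublets were marked with Scrublet in scanpy 1.11.5 (assumed rate 0.06), kept among selected nuclei and left out of clustering. Clusters came from 2000 variable genes, 40 principal components, 20 nearest neighbours and leidenalg 0.10.2 at resolution 1.0, without the selecting genes. Names ending in -like needed 3 or more markers of a list, making up 1 in 3 or more of it, to be 2-fold higher and seen in 10% of the cluster's nuclei, and the 10 leading genes to hold no more markers of another list; a name was dropped where clusters better matched by another list met it too. That rule was set after the tables were seen.

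UMIs were summed per library and set of nuclei and scaled to CPM. Genes entered at 20 CPM (mean of the libraries) in either set and 20 UMIs over the selected nuclei (in pairs, 50 UMIs). A gene was counted when past 4-fold (selected over other nuclei) or 2-fold (elsewhere) in every library or pair, after adding 0.5 counts, with no p-values. Intervals are 95% Clopper-Pearson for shares and exact conditional for ratios, and a count of 0 was read as up to 3. The ratio step was tested on simulated counts. Genes to name were the 30 leading past 4-fold (7 passed) and the 10 lowest, 10 per direction inside the main cluster, 8 per direction for fixation and harvest, and up to 4 of each list, with predicted symbols only counted. Coordinates are from GENCODE M21, to which 32158 gene identifiers matched. Alternatives were selection limits, depth, doublets, resolution, normalization and filters.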

Additional observations from a re-analysis of the deposited data

Results flagged for a closer look

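Gpc5, a glypican that carries heparan sulfate chains, moved in opposite directions with harvest in the 2 pairs of Abi3bp-high nuclei, which is what singled it out. The log2 ratio of anaesthetised over post-mortem was 1.88 in the unfixed pair and -1.53 in the methanol pair, and the difference between the pairs was not tested. The levels were 29.4, 110.2, 194 and 67.1 CPM in Abi3bp-high nuclei and 269, 323, 284 and 294 CPM in the other nuclei. In the post-mortem methanol-fixed library 3 nuclei held 175 of its 226 Gpc5 UMIs, and 18 of the 111 Abi3bp-high nuclei held any. In Abi3bp-high nuclei of the Ndst4 cluster alone the levels were 34.1, 31.5, 18.2 and 41.0 CPM, from 10, 68, 11 and 132 UMIs, without the rise in the unfixed pair or the fall in the methanol pair.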

How the results depend on the processing

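With 5 Abi3bp UMIs required the share of selected nuclei was 0.441, 2.50 and 0.806% in the first 3 libraries, and at 0.1% of UMIs it was 0.385, 2.44, 0.5004 and 2.85%. Thinned to 2000 UMIs it was 0.380, 2.79, 0.577 and 3.01%. In the anaesthetised unfixed library it was 4.25% at 1000 UMIs or more and 3.24% without doublets. Under each of these settings both anaesthetised shares stayed above both post-mortem shares. The share in the Ndst4 cluster was 72.7, 90.6, 66.2 and 83.8% at 5 Abi3bp UMIs, and 66.0 and 63.5% in the anaesthetised libraries at resolution 2.0, which splits clusters. Genes past 4-fold numbered 13 higher with median-of-ratios factors, 22 higher and 5 lower with no CPM minimum, 12 and 3 at 5 Abi3bp UMIs, and 34 lower without doublets. Added after the data were seen, 2-fold gave 46 and 121, and comparison within clusters of at least 100 CPM of Slc17a7 gave 18 and 11, where Bmpr1b and Tfap2d no longer passed. With no CPM minimum, 26 genes were higher and 20 lower inside the Ndst4 cluster, 150 and 279 for fixation, and 89 and 74 for harvest. In Ndst4-cluster nuclei only, harvest gave 60 higher genes. The cause of these changes was not tested. No paired analysis was possible because each group holds 1 library and the labels carry no replicate numbers. Low counts limit the post-mortem values most, with 124 and 111 selected nuclei.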

Other observations

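Of the 46 genes at least 2-fold higher in Abi3bp-high nuclei, 8 (17.4%) lie on chromosome 3, which holds 4.88% of the 7375 genes compared. Ndst4 and Bmpr1b are among them. Arhgap29 and Abca4 are separated by 27.7 kb, and Rxfp1 and Gask1b by 146.7 kb, with Pdgfc a further 1090.1 kb away. Genes were not tested for clustering along the genome.

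Eif2s3y separated the harvests in Abi3bp-high nuclei as it did in all nuclei, with 54 and 169 UMIs in the post-mortem libraries and 1 and 1 in the anaesthetised ones. The other Y-linked genes measured did not follow it to that extent. Ddx3y had 20, 52, 43 and 104 UMIs, Uty 70, 218, 163 and 418, and Kdm5d 40, 118, 61 and 176. Xist, the X-inactivation transcript, had 3, 1, 5 and 14 UMIs.

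Among heparan sulfate genes the Ndst4 cluster and the near-projecting-like cluster differed in which members were high. In Abi3bp-high nuclei of the Ndst4 cluster Ndst3 stood at 335, 419.8, 489 and 517 CPM, and in those of the near-projecting-like cluster at 85.3, 184, 250.5 and 98.2 CPM. The glypican Gpc6 stood at 10.2, 48.6, 13.2 and 55.9 CPM in the former and at 1465, 1052, 1779.5 and 1133 CPM in the latter. Both were chosen after their values were seen.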
